A study of Homo sapiens with 6 samples.

Results

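The genes described here are the 45 members of the DNA replication machinery, chosen by symbol for their known role in copying DNA and grouped into 5 steps: licensing of origins (9 genes), the replicative helicase (12), the polymerases (9), clamp loading with single-strand binding and strand joining (11), and nucleotide supply (4). They are 45 of the 35052 genes to which the deposited transcripts were summed. All 45 passed the filter on low counts and were among the 13131 genes tested.

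Replication starts at origins that are licensed before S phase, when the origin recognition complex (ORC), CDC6 and CDT1 load the ring-shaped MCM helicase onto DNA. The helicase is then switched on by CDC45, the GINS complex and MCM10, polymerase alpha-primase lays down primers, and polymerases delta and epsilon extend them, held to DNA by the sliding clamp PCNA, which the RFC complex loads. Many of these genes are textbook targets of E2F transcription factors, and their transcripts are highest around the entry into S phase in dividing cells.

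The study measured polyadenylated RNA of EoL-1, an established human eosinophilic leukaemia cell line, in 3 wild-type libraries and in 3 libraries of its derivative in which ATF3, a stress-responsive transcription factor of the ATF/CREB family, was knocked out with CRISPR/Cas9. Both groups carry the same line background, were grown in the same medium, and received no other treatment named in the labels. The sample labels give the genotype as a knockout, whereas the design text of the series calls the derivative a knockdown, and neither gives the edited position. Whether replicates came from different cultures or clones is not stated in the labels, and the p-values therefore rest on the spread between these libraries alone, which may be technical. In bulk RNA, fewer cells of a type (here, cells in S phase) and less RNA per cell cannot be told apart.

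The libraries held 26766103 to 30117281 estimated reads. ATF3 itself was assigned 634, 462 and 632 reads in the wild-type libraries and 146, 229 and 132 reads in the knockout libraries, or 20.7 ± 3.88 against 6.16 ± 1.96 CPM (reads scaled to a common library total; mean ± SD, n = 3 each). The groups did not overlap, and the log2 fold change (knockout minus wild type) was -1.75 (edgeR adjusted p = 0.0098); without wild-type library 1 it was -1.68 (adjusted p = 0.0527). Wild-type library 2 stood apart from the other wild-type libraries on the first principal component, which held 42.1% of the variance (-13.5 against -37.9 and -34.9; knockout 21.0 to 35.5). The labels call the cells eosinophils, but of 14 eosinophil marker genes only 5 were expressed enough to be tested, and PRG3, CLC, IL5RA and GATA1 had 0 reads in every library. The summed level of the 14 eosinophil markers was 121 to 138 CPM in wild type and 239.6 to 281 CPM in the knockout. Of these markers only RNASE2 and RNASE3 were called, both higher. RNASE2 alone had 29.1 to 40.3 CPM in wild type and 93.9 to 157 CPM in the knockout. The summed level of the neutrophil granule markers, without CAMP, which had no value, was 91.8 to 168 CPM in wild type and 314 to 618 CPM in the knockout. ELANE, PRTN3, AZU1, LTF and FCGR3B were at 0 reads, and only MPO and S100A8 were called higher. CTSG went the other way, at 6.37 to 16.4 CPM in wild type and 3.71 to 6.63 CPM in the knockout. The summed level of 9 monocyte and macrophage markers was 189 to 638 CPM in wild type and 692 to 1382 CPM in the knockout. Of the 6 tested estimates 1 was below 0, and only CSF1R and LYZ were called, both higher. The part of these marker differences in the results below was not tested.

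Of the 45 replication genes, 8 fell in the ATF3 knockout (RFC3, PRIM1, MCM6, CDT1, RFC1, RFC2, ORC5 and CDC45) and 1 rose (ORC2), by edgeR's quasi-likelihood test with Benjamini-Hochberg adjustment over all tested genes at 0.05. The 8 lower genes are 17.8% of the members, where 9.72% of all tested genes were lower. The single higher gene is 2.22% of the members, where 11.4% of all tested genes were higher. The remaining 36 members did not pass the test. The estimate was below 0 for 40 of 45 members (88.9%) and for 49.3% of all tested genes, and the median log2 fold change was -0.18 for the members and 0.01 for all tested genes. All 3 knockout libraries lay below all 3 wild-type libraries in 19 members (42.2%), where 21.4% of all tested genes had this pattern. The opposite pattern was found in 1 member (2.22%), where 22.2% of all tested genes had it. The plot of fold changes by step shows that the estimates were mostly small. Only CDT1 and PRIM1 were estimated to be lower by more than 1.5-fold, and 36 members had a 95% interval that stayed within 1.5-fold in either direction. The members spanned 9.46 to 475 CPM. Their summed level, scaled to library totals without TMM factors, was 4653 to 4889 CPM in the wild-type libraries and 3815 to 4553 CPM in the knockout libraries.

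The calls depended on single libraries. Without wild-type library 1, edgeR called 0 of the 45 members and 0 genes in all (smallest adjusted p = 0.0503), with 15 members and 3496 genes at an unadjusted p under 0.05. DESeq2, run on all 6 libraries, called 15 members lower (33.3%, against 8.73% of the genes it tested) and 1 higher. Its 19979 genes were not filtered for low counts before the fit, and by default DESeq2 can leave genes of low mean out of its adjustment. Such genes count here as not called. The 8.73% therefore cannot be set beside the 9.72% from edgeR, and is a loose background for the 33.3%. Without wild-type library 3, RFC3 was the 1 member called, and without knockout library 1 the calls were RFC3, PRIM1 and MCM6, or 6.67% of the members against 4.96% of the tested genes. Without knockout library 2, 5 members were lower (11.1%, against 5.91% of the tested genes), and without knockout library 3, 12 were (26.7% against 10.4%), with ORC2 higher in both. The fit without wild-type library 2 changed least, with 8 members lower (17.8%, against 8.46% of the tested genes) and ORC2 higher. In it ORC3 gained a call and CDC45 lost one.

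**Figure D1:**
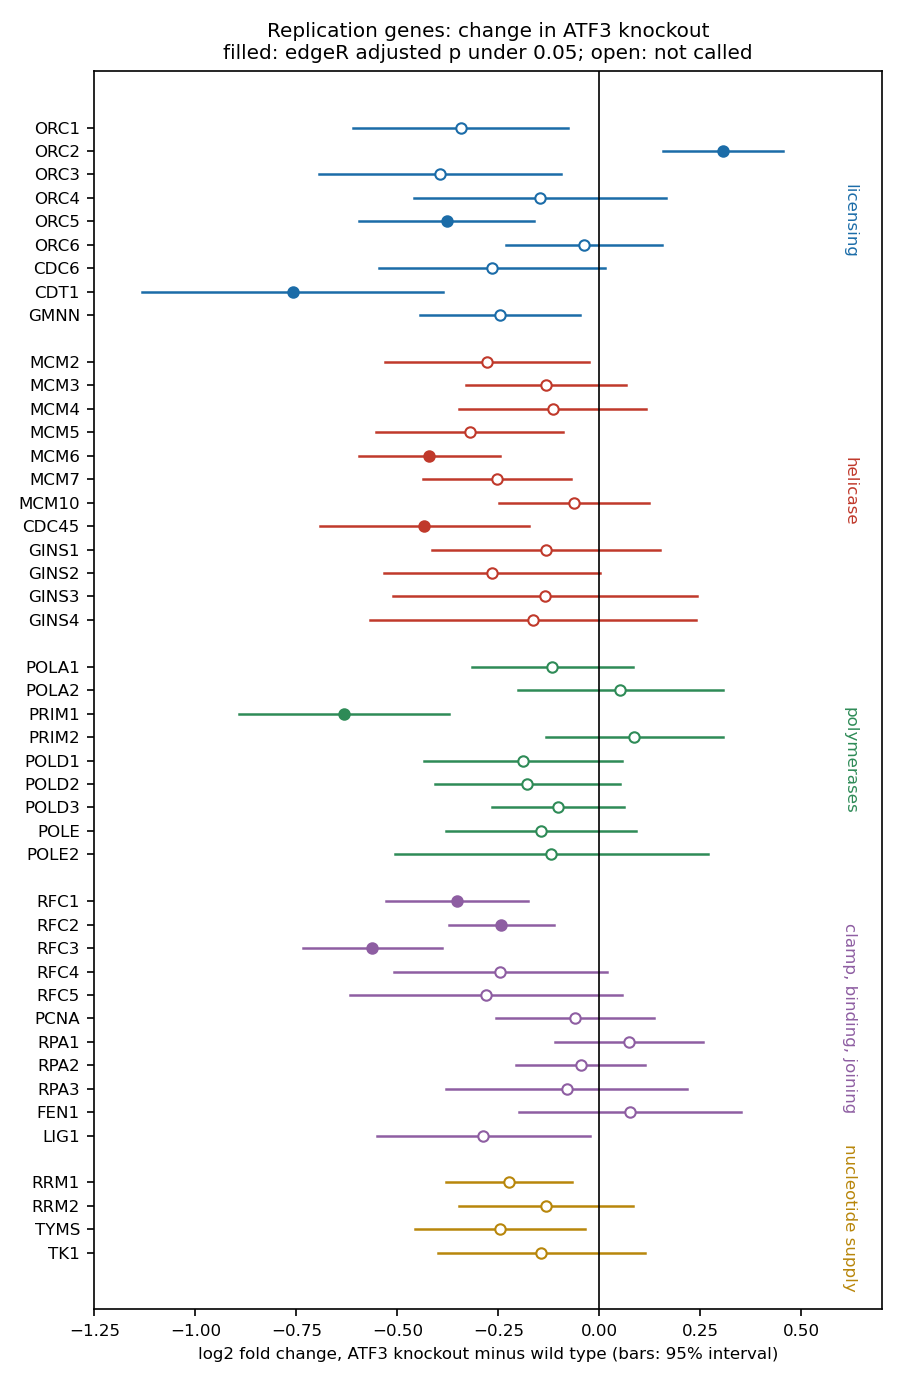
Log2 fold change (knockout minus wild type) of the 45 replication genes on the x axis, 1 gene per line, coloured by step; points are edgeR estimates, bars are 95% intervals, and filled points passed the adjusted p of 0.05. Of the estimates, 40 lie left of 0, and 9 points are filled: 8 to the left of 0 and ORC2 to the right.

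Of the 9 licensing genes, CDT1 and ORC5 fell and ORC2 rose, and the other 6 did not pass the test. Thus 22.2% fell and 11.1% rose, where 9.72% and 11.4% of all tested genes did. The median log2 fold change was -0.27. CDT1, the factor that brings the MCM helicase to ORC (ENSG00000167513, GRCh38 chr16:88803213-88809258, plus strand), had 153, 121 and 180.4 CPM in wild-type libraries 1, 2 and 3 and 81.2, 84.6 and 103 CPM in knockout libraries 1, 2 and 3. Every knockout library was below every wild-type library, although the wild-type libraries were themselves widely spread (151 ± 29.5 against 89.5 ± 11.6 CPM). The log2 fold change of CDT1 was -0.76 (SE 0.16; edgeR adjusted p = 0.0202). At 1.69-fold this was the largest fall among the members. Nearly all of its reads (96.1%) were assigned to 1 protein-coding transcript, ENST00000301019.9.

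ORC5, a subunit of the origin recognition complex (ENSG00000164815, chr7:104126341-104208047, minus strand), had 23.5, 20.7 and 23.7 CPM in wild type and 18.3, 16.3 and 17.6 CPM in the knockout. The groups did not overlap, and the log2 fold change was -0.38 (SE 0.09; edgeR adjusted p = 0.0306). ORC2, another subunit of the same complex (ENSG00000115942, chr2:200908973-200963680, minus strand), went the other way, with 39.8, 39.3 and 41.7 CPM in wild type and 51.6, 48.8 and 48.9 CPM in the knockout. The 3 knockout libraries lay close together above all wild-type libraries, and the log2 fold change was 0.31 (SE 0.06; edgeR adjusted p = 0.0198). A retained-intron transcript of ORC2, ENST00000464147.1, held 22.5% of its reads, at 165 to 293 reads per wild-type library and 323 to 352 per knockout library. When only protein-coding transcripts were summed, the rise in ORC2 was 0.23 on the log2 scale and no longer passed the test (adjusted p = 0.164). The same held with an offset for effective transcript length (0.41, adjusted p = 0.0549).

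The licensing genes that did not pass the test mostly had estimates below 0. ORC1, the largest subunit, had 42.2, 40.8 and 45.6 CPM in wild type and 28.4, 36.0 and 37.0 CPM in the knockout, without overlap (log2 fold change -0.34, adjusted p = 0.0709). ORC3 had an estimate of -0.39 (adjusted p = 0.0677), and here knockout library 2 (35.4 CPM) lay above wild-type library 2 (35.1 CPM). GMNN encodes geminin, the inhibitor of CDT1, and had 28.5 to 30.0 CPM in wild type and 22.3 to 26.3 CPM in the knockout (-0.25, adjusted p = 0.0774). CDC6, the loading factor that binds ORC, had an estimate of -0.27 (adjusted p = 0.150), and ORC4 and ORC6 had estimates of -0.15 and -0.04. The signs of the estimates for ORC4 and ORC6 turned with an offset for transcript length (ORC4, 0.15) or with protein-coding transcripts alone (ORC6, 0.35), so no direction is given for either.

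At the helicase step MCM6 and CDC45 fell, none of the 12 helicase genes rose, and all 12 estimates were below 0, with a median of -0.21. The share that fell was 16.7%, where 9.72% of all tested genes fell and 49.3% had an estimate below 0. MCM6 is 1 of the 6 subunits of the MCM2 to MCM7 ring (ENSG00000076003, chr2:135839626-135876426, minus strand). It had 309, 313 and 332 CPM in wild-type libraries 1, 2 and 3 and 218, 240.4 and 254 CPM in knockout libraries 1, 2 and 3. The gap between the groups was wider than the spread within either (318 ± 12.1 against 237 ± 18.3 CPM), and the log2 fold change was -0.42 (SE 0.07; edgeR adjusted p = 0.0135). Transcript ENST00000264156.3, which is protein coding, held 95.4% of the MCM6 reads. CDC45, which joins the MCM ring and GINS to form the active helicase (ENSG00000093009, chr22:19479459-19520612, plus strand), had 41.7, 40.5 and 45.3 CPM in wild type and 27.3, 31.3 and 35.8 CPM in the knockout. The knockout libraries were spread but all lay below wild type (-0.43, SE 0.11; edgeR adjusted p = 0.0344). The CDC45 call was the least stable of the 9, kept in 9 of 15 alternatives. The division of its reads among isoforms was uncertain: ENST00000263201.5 was assigned 345 to 932 reads in the wild-type libraries and 0, 352 and 635 in the knockout libraries.

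The other 5 subunits of the ring did not pass the test. MCM5 had 180.4, 179.6 and 196 CPM in wild type and 128, 154 and 163 CPM in the knockout, and MCM7 had 383, 395 and 418 CPM in wild type and 304, 339 and 359.5 CPM in the knockout. Neither pair of groups overlapped, and both estimates came close to the threshold (MCM5 -0.32, adjusted p = 0.0580; MCM7 -0.25, adjusted p = 0.0584). MCM2 also showed no overlap, with 233, 233 and 249.6 CPM against 168, 224 and 198 CPM (-0.28, adjusted p = 0.105). In MCM3 and MCM4 the groups overlapped, and knockout library 1 was the lowest library. MCM4, with the most reads of all members, had 433, 475 and 455 CPM in wild type and 361, 457 and 441 CPM in the knockout (-0.12, 95% interval -0.35 to 0.12; with an offset for transcript length 0.20). MCM3 had an estimate of -0.13 (95% interval -0.33 to 0.07). Of the activation factors, MCM10 had an estimate of -0.06, and GINS1, GINS2, GINS3 and GINS4 had estimates of -0.13, -0.27, -0.13 and -0.16. GINS2 alone of these 5 showed no overlap, at 27.1 to 28.9 CPM in wild type and 19.5 to 25.8 CPM in the knockout, but with an offset for transcript length its estimate was -0.0024 (adjusted p = 0.991).

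The promoters of 3 helicase genes are printed because they carry the letters searched for in all members: MCM6, which fell, beside MCM3 and MCM10, which did not pass the test. Sequences are from RefSeq (GRCh38.p14), 5′ to 3′ on the strand of the gene. Capitals mark matches, on either strand, to E2F letters (TTTCCCGC, TTTCGCGC, TTTGCCGC or TTTGGCGC), to CCAAT, which NF-Y binds, or to TGACGTCA, the cAMP response element (CRE) that ATF/CREB factors recognise. The stretches are chr2:135876484-135876603 (minus strand) for MCM6, chr6:52284853-52284922 (minus strand) for MCM3 and chr10:13161418-13161553 (plus strand) for MCM10.
MCM6: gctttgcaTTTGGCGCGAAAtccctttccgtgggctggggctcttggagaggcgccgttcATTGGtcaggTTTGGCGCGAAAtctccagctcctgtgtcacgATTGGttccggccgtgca
MCM3: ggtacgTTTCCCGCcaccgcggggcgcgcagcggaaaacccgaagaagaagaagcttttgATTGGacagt
MCM10: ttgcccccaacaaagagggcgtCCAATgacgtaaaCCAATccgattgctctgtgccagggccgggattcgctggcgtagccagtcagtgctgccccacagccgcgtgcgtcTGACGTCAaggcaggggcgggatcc
MCM6 held 4 E2F matches in overlapping pairs, starting 152, 148, 90 and 86 bases before its RefSeq start (positions -152, -148, -90 and -86), and ATTGG, the reverse complement of CCAAT, at positions -100 and -58. MCM3 held E2F letters at -174 and, outside the printed stretch, at -4. Of the printed MCM3 stretch 29 bases, those with the ATTGG, lie in sequence that GENCODE annotates as exon. MCM10 held the CRE letters at -29 and no E2F letters. A match describes letters only; binding was not measured.

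Among the polymerases PRIM1 fell, the other 8 polymerase genes did not pass the test, and the median of the 9 was -0.12. The share that fell, 11.1%, was near the 9.72% of all tested genes. PRIM1 encodes the catalytic subunit of primase, which makes the RNA primers (ENSG00000198056, chr12:56731596-56752373, minus strand). It had 43.1, 38.6 and 48.3 CPM in wild type and 26.2, 26.6 and 31.1 CPM in the knockout. Every knockout library was below every wild-type library, and the log2 fold change was -0.63 (SE 0.11; edgeR adjusted p = 0.0133), or 1.55-fold. Its reads were divided between a transcript annotated for nonsense-mediated decay, ENST00000552590.6 (44.0%), and the coding ENST00000338193.11 (40.8%). PRIM1 shares 362 exon bases with an annotated gene on the same strand, ENSG00000285625, to which 630 reads were assigned over all libraries beside 5937 for PRIM1. PRIM2, the regulatory subunit of primase and its partner, had 28.5, 30.9 and 33.4 CPM in wild type and 31.4, 35.9 and 31.2 CPM in the knockout. Those groups overlapped, and the estimate was 0.09 (95% interval -0.13 to 0.31; with an offset for transcript length -0.08).

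The members that encode DNA-synthesising polymerases did not pass the test. POLE4, a polymerase epsilon subunit outside the members, fell and is counted below with the fork-protection genes and cofactors. POLD4 and POLE3, on that same list, were not called. POLD2, a small subunit of polymerase delta, had 162, 161 and 174 CPM in wild type and 135, 137 and 168 CPM in the knockout (-0.18, adjusted p = 0.228). POLD1, its catalytic subunit, had 131, 128 and 147 CPM in wild type and 107, 113 and 135 CPM in the knockout (-0.19, adjusted p = 0.232). In both, knockout library 3 lay within the wild-type range and knockout libraries 1 and 2 lay below it. Without knockout library 3, edgeR called both lower (POLD2 -0.30, adjusted p = 0.0255; POLD1 -0.30, adjusted p = 0.0455). POLD3 and POLE, the catalytic subunit of polymerase epsilon, had estimates of -0.10 and -0.14. POLA1, the catalytic subunit of polymerase alpha, had an estimate of -0.12. For POLA2 (0.05) and POLE2 (-0.12) the sign turned under alternatives, and POLA2 shares 2012 exon bases with a same-strand read-through gene, ENSG00000285816.

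In the group for clamp loading, single-strand binding and joining, RFC1, RFC2 and RFC3 fell, and the other 8 of 11 genes did not pass the test. The share that fell was 27.3%, against 9.72% of all tested genes, and the median was -0.24. RFC1, RFC2 and RFC3 encode subunits of the 5-part clamp loader, in which RFC1 is the large subunit. RFC3 (ENSG00000133119, chr13:33818049-33966558, plus strand) had 58.3, 56.3 and 56.9 CPM in wild type and 37.1, 41.9 and 37.1 CPM in the knockout. Libraries within a group were close and the groups far apart (57.2 ± 1.05 against 38.7 ± 2.79 CPM), and the log2 fold change was -0.56 (SE 0.07). RFC3 had the smallest adjusted p among the members, 0.0087 by edgeR, and kept its call in 14 of 15 alternatives.

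RFC1 (ENSG00000035928, chr4:39287456-39366375, minus strand) had 169, 159.8 and 164 CPM in wild type and 133, 136 and 117 CPM in the knockout. Knockout library 3 was the lowest, and the groups did not overlap (-0.35, SE 0.07; edgeR adjusted p = 0.0211). RFC2 (ENSG00000049541, chr7:74231499-74254458, minus strand) had 87.2, 86.2 and 88.4 CPM in wild type and 73.6, 72.0 and 75.7 CPM in the knockout. The fall in RFC2 was the smallest of the 8 (-0.24, SE 0.05; edgeR adjusted p = 0.0254) and stood on a spread of 1.07 and 1.84 CPM (SD) in the 2 groups. The remaining small subunits, RFC4 and RFC5, had estimates of the same size that did not pass the test (RFC4 -0.24, adjusted p = 0.157; RFC5 -0.28, adjusted p = 0.198).

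The promoters of RFC1 and RFC3 are printed because, with MCM10, they were the 3 members whose windows held the CRE letters, here in capitals; both are from RefSeq (GRCh38.p14), at chr4:39366376-39366422 (minus strand) for RFC1 and chr13:33818029-33818078 (plus strand) for RFC3.
RFC1: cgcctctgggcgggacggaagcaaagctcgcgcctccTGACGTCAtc
RFC3: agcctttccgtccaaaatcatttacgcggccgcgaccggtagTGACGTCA
The CRE match lay at position -23 in RFC1 and -78 in RFC3, and RFC3 held E2F letters at -55, outside the printed stretch. GENCODE starts RFC3 at base 33818049, before its RefSeq start, so both matches in RFC3 lie past the GENCODE start. In the printed stretch 30 bases, the CRE match among them, lie in sequence that GENCODE annotates as exon. Whether the E2F letters lie in an exon was not examined. RFC1 and RFC3 fell in the knockout, and MCM10 did not pass the test (43.5 ± 3.76 against 45.4 ± 0.401 CPM in wild type).

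The clamp itself did not change detectably. PCNA had 212, 249 and 235 CPM in wild type and 206, 231 and 229.7 CPM in the knockout, with overlapping groups and an estimate of -0.06 (95% interval -0.26 to 0.13; adjusted p = 0.635). The 3 subunits of RPA, which coats single-stranded DNA, likewise overlapped between groups: RPA1 had an estimate of 0.07, RPA2 of -0.05 and RPA3 of -0.08, the last 2 turning to 0.00 and 0.03 without knockout library 1. FEN1, the nuclease that trims the flaps between Okazaki fragments, had an estimate of 0.08 (95% interval -0.20 to 0.35). LIG1, the ligase that seals them, had 96.8, 95.7 and 97.6 CPM in wild type and 65.7, 88.9 and 83.2 CPM in the knockout. All knockout libraries of LIG1 were lower, but its estimate of -0.29 did not pass the test (adjusted p = 0.11).

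None of the 4 genes of nucleotide supply, which make deoxynucleotides, passed the test, all 4 estimates were below 0, and the median was -0.18. Of all tested genes, 9.72% fell, 11.4% rose and 49.3% had an estimate below 0. RRM1, the large subunit of ribonucleotide reductase, had 126, 131 and 136 CPM in wild type and 105, 117 and 115 CPM in the knockout. Its groups did not overlap, and the estimate of -0.22 was just short of the threshold (SE 0.07; adjusted p = 0.0530). RRM2, the small subunit whose level limits the enzyme in dividing cells, had 183, 203 and 199 CPM in wild type and 156, 188 and 189 CPM in the knockout (-0.13, adjusted p = 0.336). Here knockout libraries 2 and 3 lay within the wild-type range. TYMS, thymidylate synthase, had 208, 227 and 229 CPM in wild type and 166, 205 and 189 CPM in the knockout, without overlap (-0.25, adjusted p = 0.0924). TYMS shares 967 exon bases with ENOSF1 on the opposite strand, to which 3758 reads were assigned beside 34001 for TYMS, and the labels and files do not name the strand setting of the counting. TK1, the salvage kinase for thymidine, had an estimate of -0.14 (95% interval -0.40 to 0.11).

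**Figure D2:**
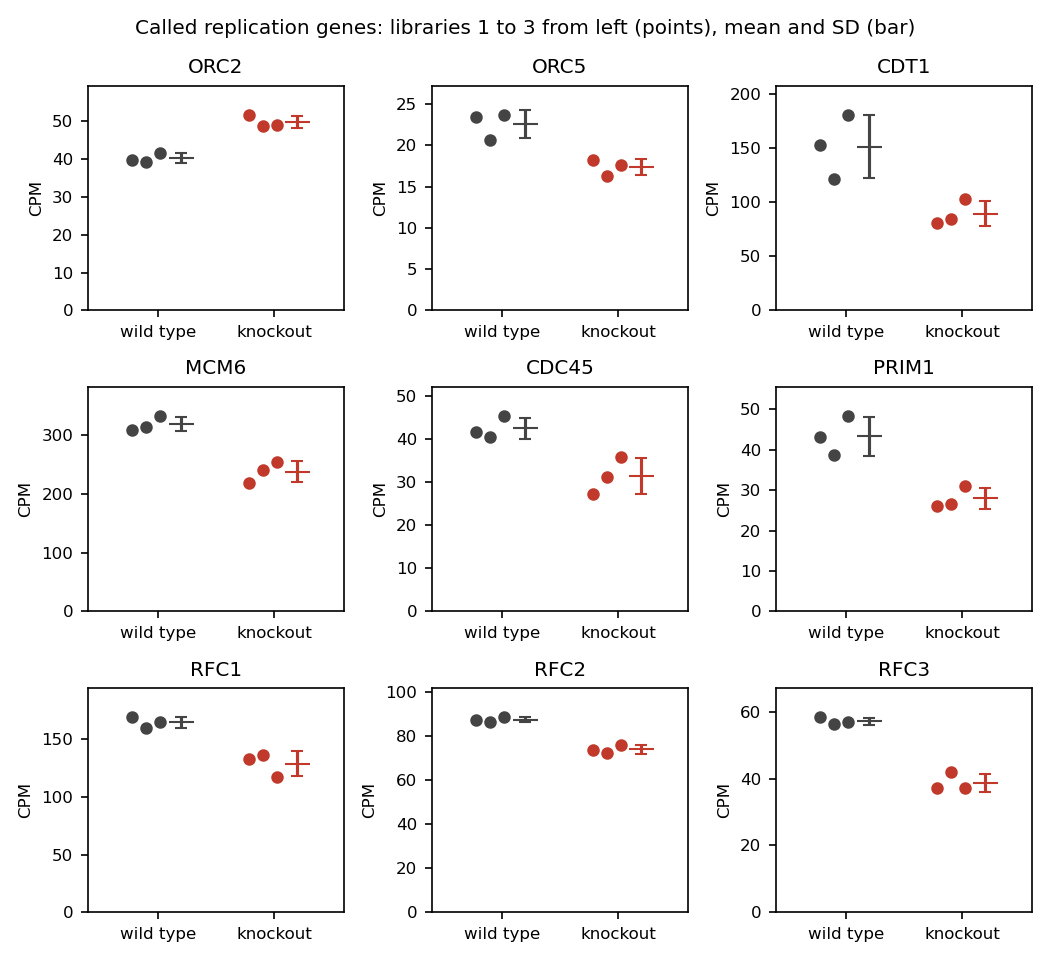
CPM (y axis, from 0) of the 9 replication genes that passed the test, 1 panel per gene, with wild-type libraries in grey and knockout libraries in red; points are libraries 1 to 3 from left to right, and bars are the mean ± SD (n = 3). In every panel the groups do not overlap, and ORC2 is the only gene with the knockout above wild type.

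Beside single genes, the members differed between the libraries of one group. Knockout library 1 was the lowest of all 6 libraries in 35 of 45 members, and the lowest of the 3 knockout libraries in 36 (80.0%), whereas it was the lowest knockout library in 29.0% of all tested genes. On the scale of log2 CPM minus the gene's mean over the 6 libraries, the median of the 45 members was 0.06, 0.11 and 0.16 in wild-type libraries 1, 2 and 3, and -0.26, 0.01 and -0.03 in knockout libraries 1, 2 and 3. The median over all tested genes was 0.00 to 0.02 in every library. Knockout library 1 was the low library at each step, with medians of -0.26 for licensing, -0.33 for the helicase, -0.21 for the polymerases, -0.21 for the clamp group and -0.27 for nucleotide supply. Wild-type library 3 was the highest of the 6 in 27 members. Without knockout library 1 the members' median log2 fold change was -0.12 and 37 of 45 estimates stayed below 0.

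**Figure D3:**
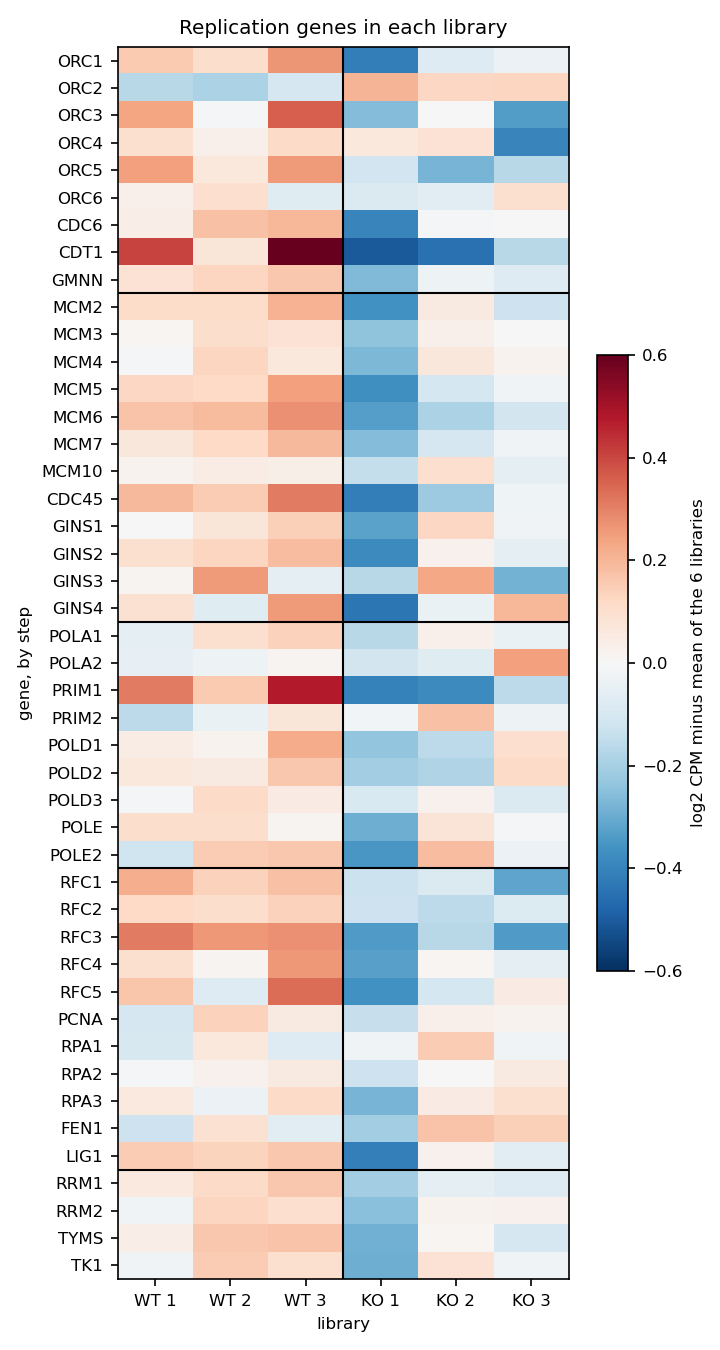
Log2 CPM minus the mean of the 6 libraries (colour; red above, blue below, ends of the scale at 0.6) for each replication gene (rows, by step, values past the scale drawn at its end) in each library (columns; WT wild type, KO knockout). Knockout library 1 is blue in most rows, with a median of -0.26, and ORC2 is the row with the reverse pattern.

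Because members of one complex differed in their calls, 5 ratios between members were computed within each library, chosen after the values were seen. Each is a log2 ratio of CPM; its level also depends on transcript length, so only the difference between groups is described. MCM6 over the geometric mean of MCM2, MCM3, MCM4, MCM5 and MCM7 was 0.03, -0.00 and 0.03 in wild type and -0.11, -0.26 and -0.16 in the knockout. Every knockout library was below every wild-type library, and the mean difference was -0.20. PRIM1 over PRIM2 was 0.60, 0.32 and 0.53 in wild type and -0.26, -0.43 and -0.00 in the knockout, a difference of -0.72. CDT1 over GMNN was 2.42, 2.04 and 2.58 in wild type and 1.86, 1.68 and 2.01 in the knockout, a difference of -0.50. The CDT1 ranges lay next to each other, with wild-type library 2 just above knockout library 3. RFC3 over RFC2, RFC4 and RFC5 differed by -0.31 and ORC2 over ORC5 by 0.68. For all 5 ratios the groups did not overlap. Each ratio has a called member as its numerator and was chosen after its values were seen, so the choice favoured this separation. The exact two-sided permutation test gave p = 0.1 for each, before and after adjustment, the smallest value that 3 against 3 libraries allow. For the same reason it is no test of the complexes, and no conclusion is drawn from it.

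Levels between genes were compared per length, as TPM, a per-length share of all transcripts in a library, summed over a gene's transcripts in wild type. Because short transcripts hold many TPM for few reads, the level was also computed as CPM per kilobase of read-weighted transcript length, an alternative chosen after seeing the data. MCM4 had 327 ± 103 TPM (SD, n = 3), of which 61.3% came from transcripts under 500 bases, and 127 on the second scale. POLD2 had 277 TPM (52.9% from such transcripts) and 109 on the second scale. PCNA (180 TPM; 170 on the second scale), MCM7 (173; 149), TYMS (155; 142) and MCM3 (121; 120) ranked high on both scales. Of the genes that fell, MCM6 had 100.5 TPM (86.5 on the second scale), whereas RFC3 had 27.0 and PRIM1 34.3 TPM. The lowest summed TPM were those of POLA1 (6.89 TPM; 7.61 on the second scale), GINS4 (9.05; 6.06) and POLE2 (9.74; 7.52); on the second scale ORC4 (6.85) lay below POLE2 and POLA1. Neighbours in this order can lie within the spread: MCM7 and PCNA differed by less than the SD of PCNA (13.9 TPM).

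**Figure D4:**
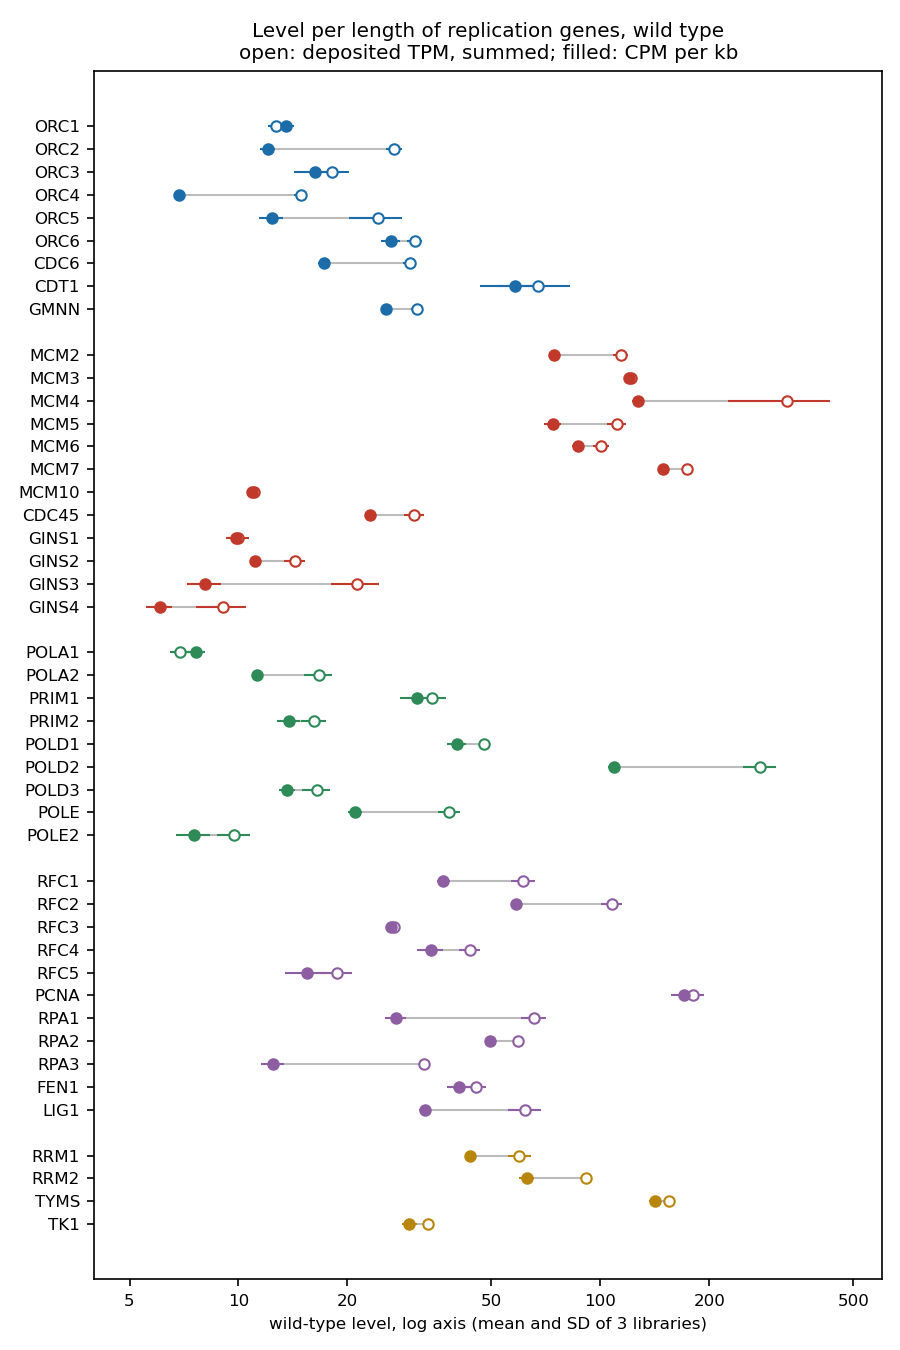
Wild-type level of each replication gene (rows, coloured by step) on a log axis, as summed TPM (open points) and as CPM per kilobase of read-weighted transcript length (filled points), mean ± SD of 3 libraries. The pairs of points lie far apart for MCM4 (327 and 127), POLD2 (277 and 109) and RPA3 (32.5 and 12.5) and close together for MCM3 and PCNA.

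Genes that work beside the replication machinery were examined as whole lists, with no test of a list as a set. Of all tested genes, 9.72% fell and 11.4% rose. The share that fell was 14.3% for the origin-firing list, 30.0% for fork protection and cofactors, and 10.0% for chromatin assembly and maintenance. Of 14 genes on the origin-firing list, 2 fell and none rose (median -0.03). MTBP, a partner of the firing factor TICRR, fell from 22.3 ± 1.94 to 15.6 ± 1.13 CPM (log2 fold change -0.52, edgeR adjusted p = 0.0176). TRAIP, a ubiquitin ligase that is on the list but is not a firing factor, also fell (-0.43, edgeR adjusted p = 0.0359). Of 20 fork-protection genes and cofactors, 6 fell and none rose (median -0.23). They include ATAD5, which unloads PCNA, from 47.9 ± 3.20 to 29.8 ± 4.28 CPM (-0.69, adjusted p = 0.0131), MCMBP, a binding partner of the MCM proteins (-0.42, adjusted p = 0.0145), and TIPIN, a component of the fork protection complex (-0.58, adjusted p = 0.0145). Of 10 chromatin assembly and maintenance genes, 1 fell (NASP, a histone chaperone, -0.26, adjusted p = 0.0465; median -0.13).

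Of 16 other genes of nucleotide metabolism, 6 fell and none rose (median -0.22), among them the deaminase DCTD, from 126 ± 5.73 to 95.2 ± 6.92 CPM (-0.41, adjusted p = 0.0147), and the deoxycytidine kinase DCK (-0.40, adjusted p = 0.0217). Of 21 tested E2F and RB regulators, 5 fell and 1 rose (median -0.09); RBL1, a pocket protein of the RB family, fell by 0.53 (adjusted p = 0.0081) and CDK4 by 0.31 (adjusted p = 0.0319) on the log2 scale, and CCND3, cyclin D3, rose by 0.36 (adjusted p = 0.0244). CDKN1A, the inhibitor p21 of cyclin-dependent kinases, had 37.3, 77.8 and 59.2 CPM in wild type and 203, 378 and 209.8 CPM in the knockout (2.18, SE 0.34; edgeR adjusted p = 0.011), and was the 1 called gene of the 4 tested kinase inhibitors. Of 20 genes of G2 and mitosis, 1 fell (BUB1B, -0.29, adjusted p = 0.0156) and none rose (median -0.11). Of 10 replication checkpoint genes, the kinases CHEK1 (-0.53, adjusted p = 0.0145) and WEE1 (-0.41, adjusted p = 0.0202) fell, and ATRIP (0.37, adjusted p = 0.0369) and RAD9A rose, with a median of -0.04. The shares that fell were 37.5% (other nucleotide metabolism), 23.8% (E2F and RB regulators), 5.0% (G2 and mitosis) and 20.0% (checkpoint), against 9.72% of all tested genes. The shares that rose were 4.76% (E2F and RB regulators), 25.0% (kinase inhibitors) and 20.0% (checkpoint), against 11.4% of all tested genes.

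Promoter windows of 300 bases (250 before to 50 after each RefSeq start) were found for 39 of the 45 members, in 50 windows; MCM4, MCM5, GINS4, POLD3, RPA2 and RPA3 had none. E2F letters lay in 19 of the 50 member windows (38.0%) and in 3.31% of all 35116 windows. They were found in 3 of the 9 genes that passed the test (CDT1, MCM6 and RFC3) and in 16 of the 30 others with a window (53.3%). CCAAT lay in 58.0% of member windows and 34.6% of all windows. The CRE letters lay in 3 member windows (6.0%, against 1.85% of all windows), and the AP-1 letters TGANTCA in 1 (GINS1; 2.0% against 7.71%). The cell cycle homology region letters (TTTGAA or TTCGAA) lay in 2 (4.0% against 16.4%), those of MCM6 and RRM1. All motifs were searched on both strands. These shares are descriptions without a test, and some windows of one gene overlap.

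**Figure D5:**
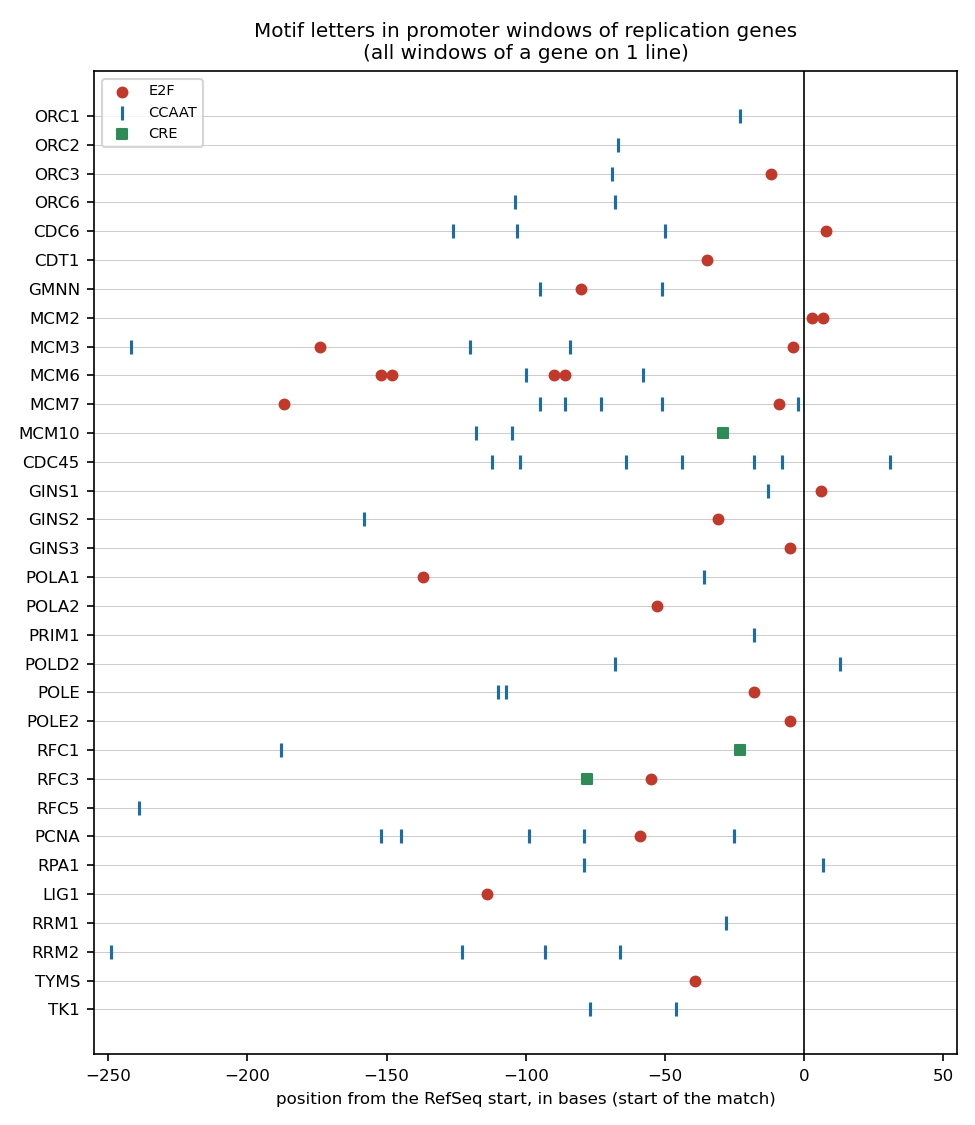
Start of each match to the E2F (red circles), CCAAT (blue bars) and CRE (green squares) letters, in bases from the RefSeq start at 0 (x axis), for the members with a match (rows); all windows of a gene share a line. The E2F matches of MCM6 stand in 2 pairs, at -152 and -148 and at -90 and -86, and the CRE match of RFC1 lies at -23.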

How the data were processed

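RNA of 3 wild-type and 3 ATF3 knockout EoL-1 libraries was prepared with a stranded mRNA kit, per the labels' protocols. Per the file headers, the authors deposited for each library and 177456 transcripts a length, an effective length (equal across libraries), a TPM and an estimated count. Per the submitters' processing notes, the tools were FastQC 0.11.9 and Salmon 1.6.0 with build hg38. Library type, bias options and transcriptome release: not given in the sources used here.

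Transcripts were matched to GENCODE (GRCh38) by identifier (167027 matched, 155671 in the same version); the 10429 others, with 3.59% to 3.82% of reads, were left out of library sizes and tests. The deposited estimated counts (93.0% of values above 0 were not whole) were summed per gene and rounded. Genes passing edgeR's filterByExpr (minimum count 10) were fitted with TMM factors and tested with edgeR 4.0.16 (glmQLFit, glmQLFTest; 4 residual degrees of freedom; biological coefficient of variation 16.8%) in R 4.3.3, with Benjamini-Hochberg adjustment over 13131 genes at 0.05 and 95% intervals. CPM were computed here with TMM factors, except list sums, marker CPM and CPM per kilobase, which used the total of matched reads alone. Deposited TPM were summed per gene only to compare levels. Each member had at least 246 reads in every library, and errors were estimated from the spread between libraries, which includes counting error.

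The members and lists were chosen with earlier results of these data known. Named in full were ATF3, every called member and, per step, up to 3 members with the smallest p and the most abundant by TPM; per related list, up to 3 called genes with the smallest p (some are not reported here); other members are given by estimate or range. Alternatives were RLE and upper-quartile factors, no filter, DESeq2 1.42.0, limma-voom (limma 3.58.1), leaving out each library, a replicate block, a length offset, protein-coding transcripts alone and removal of a GC trend. Proteins were not used here.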

Additional observations from a re-analysis of the deposited data

How the results depend on the processing

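The full fit called 8 members lower and 1 higher, and 1494 genes higher and 1276 lower. Leaving out 1 library at a time gave 0 to 12 members lower, 0 to 1 higher, 0 to 1370 genes higher, 0 to 1388 lower, and an ATF3 log2 fold change of -2.03 to -1.58, which passed the test in all but the fit without wild-type library 1 (-1.68, adjusted p = 0.0527); those fits leave 1 group with 2 libraries. DESeq2 called 15 members lower (8.73% of its 19979 genes, which include low-count genes that it may leave out of its adjustment). Removal of the GC trend gave 14 members lower (10.6% of its genes). The effective length offset gave 0 members higher and 7 lower (15.6%, against 5.03% of the tested genes), with 722 genes higher and 661 lower. Protein-coding transcripts alone gave 0 members higher and 10 lower (22.2%, against 9.26% of the tested genes). The cause of these differences was not tested. Under RLE factors, upper-quartile factors, no filter and limma-voom the members called lower were 8 or 9 (17.8% or 20.0%) and the 1 higher. Of the tested genes, 5.42% were lower without the filter and 9.78% to 10.7% under the others. Members with an estimate below 0 were 37 to 41 in every setting. Calls were kept in 14 of 15 alternatives for RFC3, 13 for MCM6 and PRIM1, 12 for RFC1, 11 for CDT1, 10 for ORC2, ORC5 and RFC2, and 9 for CDC45; no call changed direction. Replicate numbers were not treated as pairs in the main fit. Same-numbered libraries correlated at -0.09, 0.11 and 0.20 in their deviations from the group means, and not every library correlated best with its own number. Deviations from a mean of 3 libraries depend on each other, so these correlations cannot exclude a pairing. With the replicate block 9 members were lower (20.0%, against 8.32% of the tested genes) and 1 higher. RFC2 lost its call there (edgeR adjusted p = 0.0507), and MCM5 and MCM7 gained one. The fewest reads of a member in a library were 246 (POLE2); counting error was not compared with the spread between libraries.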
